A study of Homo sapiens with 6 samples.

Results

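The passage from primitive streak to mesoderm in cardiac organoids made from H9, an established human embryonic stem cell line, was described as the change of every gene between the day 2 library and the day 3 library. Of the 58735 genes in the deposited table, 16149 had a level of at least 1 FPKM (reads scaled by gene length and by a total for the library) in at least 1 of the 2 libraries, and these were compared. No measured difference chose them. The series holds 6 libraries of polyadenylated RNA, 1 for each of days 0, 2, 3, 4 and 6 and 1 for day 30, with 10 organoids taken per time. All 6 share the line, the cell type entry (embryonic stem cell) and the protocol, and differ in the labels by day alone. Which agents were given, at which dose and on which day, the sources used here do not say. Levels on days 0, 4, 6 and 30 are used below to place the 2 compared days.

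In the gastrulating embryo, WNT and NODAL signals set up the primitive streak, a band of cells marked by the T-box factor TBXT and the homeobox factor MIXL1. Cells that pass through the streak lose the pluripotency programme, change adhesion and matrix, and form mesoderm or definitive endoderm. MESP1 and MESP2 mark nascent mesoderm, HAND1 the lateral plate and its heart-forming region, and SOX17 endoderm. Protocols for heart cells from stem cells pass through these states in culture.

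Differences are given as log2(FPKM + 1) at day 3 minus day 2, and a gene counts as called where this reaches 1 in either direction. By this rule 1152 genes were higher at day 3, which is 7.13% of those compared, and 804 were lower, which is 4.98%. Among 12063 protein-coding genes, 516 were higher (4.28%) and 375 lower (3.11%), and these shares are the background for the gene lists. The median difference was -0.016 over all genes and -0.058 over protein-coding genes. Genes at the edge of the rule were ANO9 (from 3.33 to 7.68 FPKM) and GPC3 (11.8 and 24.6 FPKM), just inside and just outside for rises, and GPR19 (from 5.26 to 2.13 FPKM) and MAPKAP1 (11 and 5.01 FPKM) for falls. With 1 library per day no test or p-value exists, and "rose" and "fell" mean past this rule in these 2 libraries. Where a pair of levels is given without "from", day 2 comes first. The counting interval of the fold excluded 1 for 914 of the rises and 575 of the falls. Folds are ratios of FPKM, and the numbers in brackets after them are 95% intervals that cover counting error only.

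**Figure D1:**
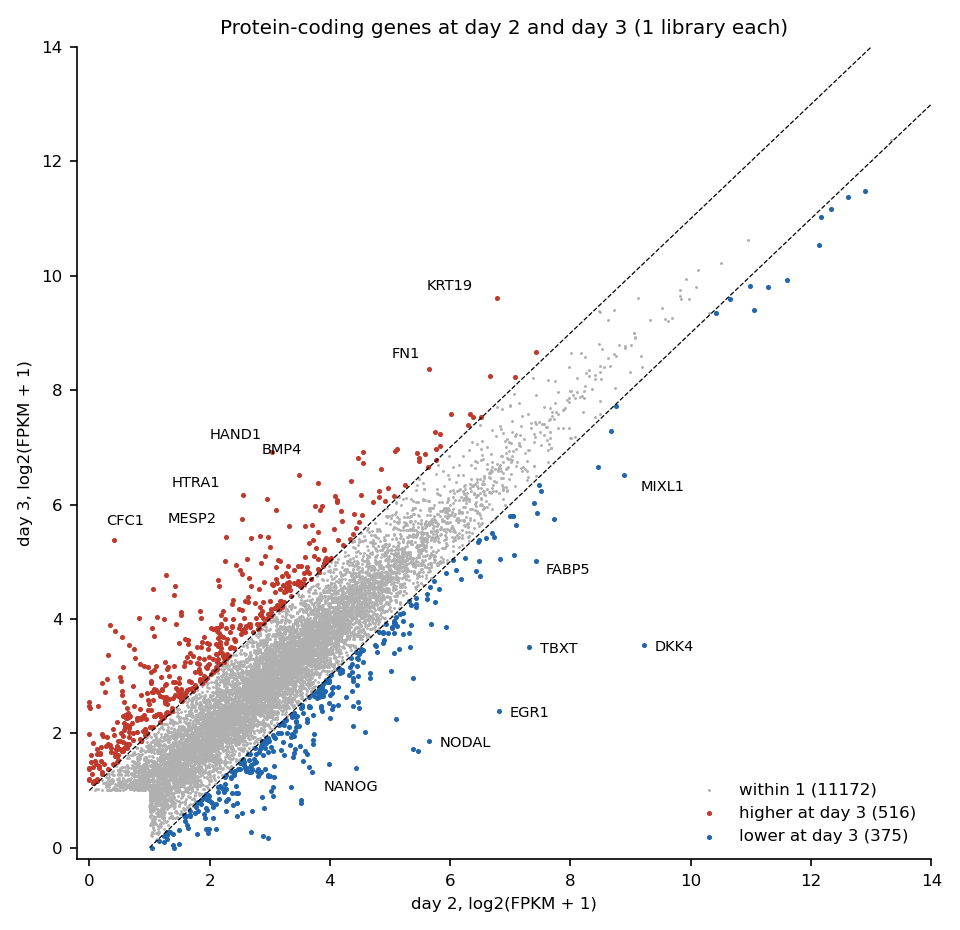
Levels of protein-coding genes in the day 2 library (x axis) and the day 3 library (y axis), both in log2(FPKM + 1), 1 point per gene, with dashed lines at a difference of 1. The 516 red points were higher at day 3, the 375 blue points were lower, and DKK4 and CFC1 lie farthest from the diagonal.

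The 2 libraries held 15526924 (day 2) and 13500887 (day 3) recovered reads. Reads of the 13 mitochondrially encoded protein genes made up 5.93% of the day 2 library and 2.92% of the day 3 library. Differences also moved with gene length: the median was -0.19 in the shortest of 20 length bins and 0.08 in the longest. By transcript GC content it was -0.05 in the bin of lowest GC, -0.14 in the lowest-lying bin and 0.08 in the bin of highest GC. Setting each library to the same FPKM total instead of the deposited scaling shifted the log2 ratio of levels up by 0.236. It gave 1640 higher and 557 lower genes, so that 74.6% rather than 58.9% of the calls were rises. The mitochondrially encoded protein genes, whose summed level was 51328 FPKM at day 2 and 21633 at day 3, count in that total. Their part in the shift was not worked out.

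**Figure D2:**
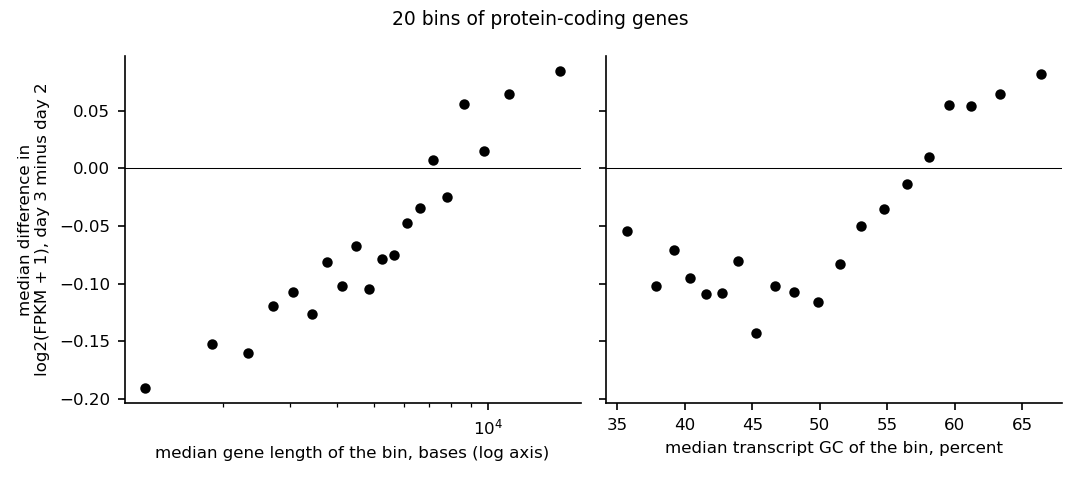
Median difference in log2(FPKM + 1), day 3 minus day 2, of 20 bins of protein-coding genes by gene length (left, log axis) and by transcript GC percent (right), 1 point per bin. The medians run from -0.19 to 0.08 along length and lie above 0 in the 5 bins of highest GC.

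Most transcription factors of the primitive streak fell. Of 15 factors compared, 10 fell and none rose, and the list's median difference was -1.82. MIXL1, a homeobox factor of the streak, went from 472 to 91.1 FPKM, which is 5.18-fold (4.97 to 5.4) lower, and stood at 33.1 FPKM at day 4 and 1.88 at day 6. MSGN1, a bHLH factor of presomitic mesoderm, went from 40.6 to 2.3 FPKM. The homeobox factor EVX1 fell from 39.3 to 10.4 FPKM and came back to 23 FPKM at day 4. GSC, the organizer factor goosecoid, fell from 60 to 13.5 FPKM. The caudal factors CDX1 (from 20.6 to 1.63 FPKM) and CDX2 (from 4.54 to 0.93 FPKM), which position the posterior body, fell as well. SP8 (from 47.9 to 19.5 FPKM), NKX1-2 (from 4.84 to 0.518 FPKM), GBX2 (from 6.84 to 0.12 FPKM) and TBXT (from 158 to 10.4 FPKM) complete the list of falls. Of these 10 factors, 9 had their highest level of the 6 libraries on day 2. In the other direction, LHX1, a LIM homeobox factor of the streak's anterior part, was at 116 FPKM on day 2 and 204 on day 3. FOXA2 was at 40.7 and 66.2 FPKM, and TBX6 at 42.3 and 64.6 FPKM, and none of these 3 passed the rule, although LHX1 did at equal FPKM totals.

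Factors of early and lateral mesoderm moved the other way, with 8 of 19 compared rising, 1 falling and a median difference of 0.81. HAND1 (chr5:154474972-154478264 in the deposited table, whose genome build is not given in the sources used here) was at 0.436 FPKM at day 0, 7.25 at day 2, 121 at day 3, 193 at day 4, 277 at day 6 and 37.7 at day 30. MESP2 was at 0.425 FPKM at day 0, 4.84 at day 2, 52.9 at day 3, 12.2 at day 4, 0.487 at day 6 and 0 at day 30, a single high day. MESP1, its neighbour and paralog, rose from 25.2 to 65.2 FPKM, a fold of 2.59 (2.4 to 2.8). FOXC2, a forkhead factor of paraxial and vascular mesoderm, rose from 1.18 to 15.3 FPKM and was back at 2.79 FPKM by day 4. TWIST1 (from 2.99 to 10.8 FPKM) and SNAI2 (from 3.84 to 11 FPKM), which drive epithelial to mesenchymal transition, rose. The heart factors TBX20 (from 0.166 to 2.86 FPKM) and HAND2 (from 0.0517 to 1.24 FPKM) rose from near 0 to low levels. FOXF1, a forkhead factor of lateral and extraembryonic mesoderm, was the exception, at 0 FPKM at day 0, 6.09 at day 2, 1.45 at day 3, 2.99 at day 4, 7.96 at day 6 and 20.9 at day 30. Its day 3 level lay below those of day 2 and day 4.

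**Figure D3:**
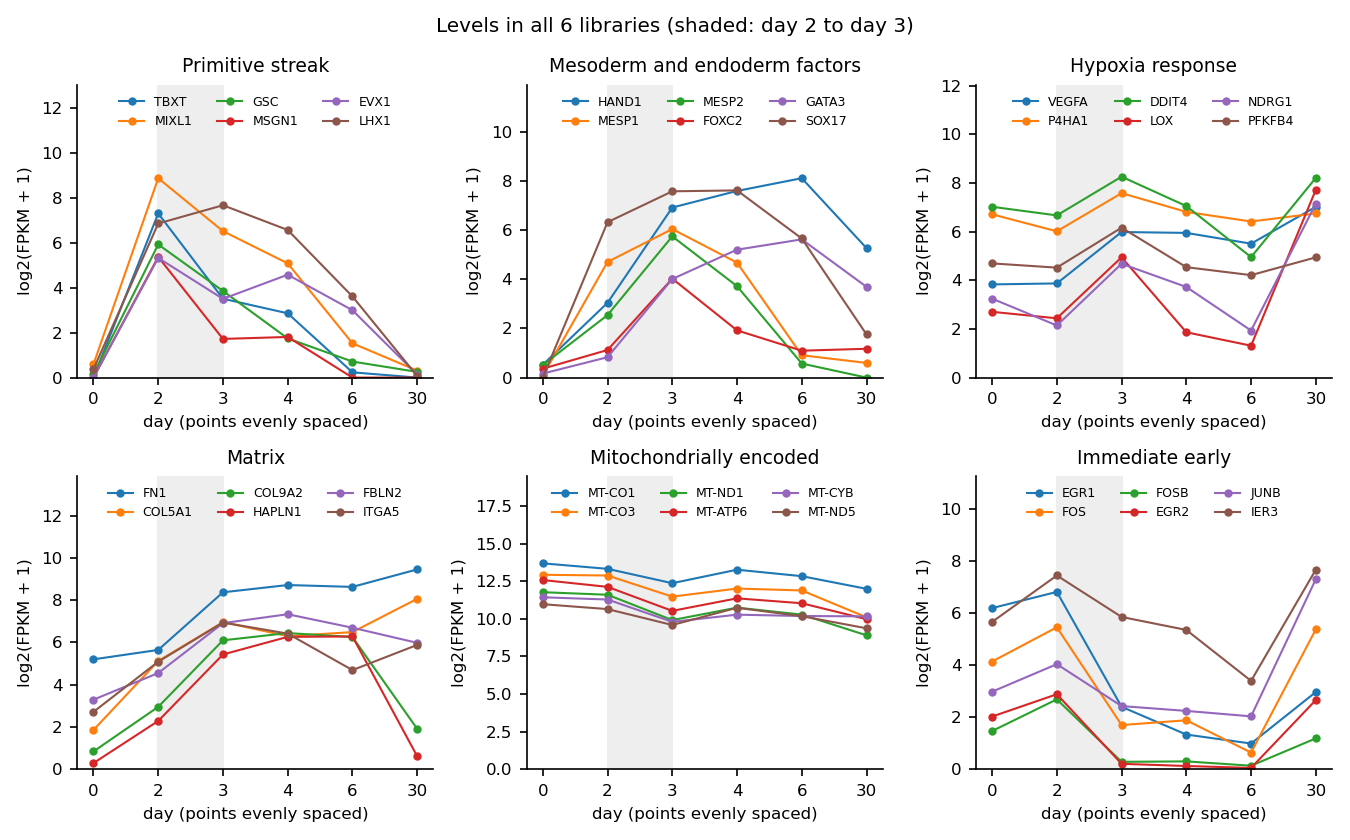
Levels of genes in log2(FPKM + 1) (y axis) in each of the 6 libraries (x axis, days evenly spaced), 6 genes per panel, 1 library per day, with the step from day 2 to day 3 shaded. Streak factors other than LHX1 peak at day 2, MESP2 and FOXC2 at day 3, and HAND1 and GATA3 at day 6.

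Other families of transcription factors were split. GATA3, a zinc finger factor of extraembryonic and early mesodermal tissue, rose from 0.777 to 15.2 FPKM, and GATA5, a factor of heart and gut, rose from 0.814 to 3.76 FPKM. GATA4 and GATA6, partners in heart formation, were at 16.2 and 26 FPKM, and 65.4 and 63.9 FPKM, and were not called. In the FOX family 5 of 27 rose and 2 fell. The rises included the endoderm factors FOXA1 (from 0.53 to 3.83 FPKM) and FOXA3 (from 10.5 to 23.5 FPKM), and the second fall beside FOXF1 was FOXB1 (from 10.4 to 2.43 FPKM). SOX17 rose from 79.4 to 191 FPKM while the pluripotency factor SOX2 fell from 19.6 to 7.41 FPKM, with the other 10 of 12 SOX genes not called. Among 57 genes of the homeobox family in the deposited factor annotation, 13 rose and 9 fell, or 22.8% and 15.8%. The Iroquois genes IRX3 (from 30.4 to 77.4 FPKM), IRX5 (from 4.23 to 19.1 FPKM) and IRX1 (from 2.11 to 11.4 FPKM), known for patterning the heart and other organs, all rose. MEIS1 (from 0.312 to 3.2 FPKM) and MEIS2 (from 0.575 to 3.28 FPKM), which bind DNA with HOX proteins, rose as well. Of 39 HOX genes only 4 reached 1 FPKM, and of these HOXB2 (from 0.824 to 5.37 FPKM) and HOXB3 (from 0.566 to 2.48 FPKM) rose. In the 483 C2H2 zinc finger genes of that annotation, 12 rose and 7 fell, shares of 2.48% and 1.45%.

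Pluripotency genes were mostly lower. Of 24 compared, 7 fell and 1 rose, with a median of -0.70. POU5F1 (OCT4), a core factor of pluripotency, stood at 561 FPKM at day 0, 352 at day 2, 100.2 at day 3, 34.5 at day 4, 3.68 at day 6 and 0.28 at day 30, and was 3.51-fold (3.39 to 3.63) lower at day 3 than at day 2. NANOG stood at 23.4 FPKM at day 0, 11.3 at day 2, 2.12 at day 3, 0.434 at day 4, 0.0751 at day 6 and 0 at day 30. The labels enter every library as embryonic stem cells, while at day 3 both factors lay between their day 0 and day 6 levels. DNMT3B, a DNA methyltransferase high in pluripotent cells, fell from 177 to 79.8 FPKM, and L1TD1, an RNA-binding protein of the same cells, fell from 71.4 to 24.8 FPKM. The DNMT3B call ended at equal FPKM totals. In a bulk library, fewer cells of a type and less RNA per cell cannot be told apart.

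In the MYC network 2 of 13 genes rose and 2 fell. MYC fell from 12.7 to 5.13 FPKM and MYCL from 4.94 to 1.74 FPKM, whereas MXI1, a MYC antagonist that is also a hypoxia target, rose from 14.2 to 31.5 FPKM. At equal FPKM totals 4 genes of the list rose and none fell, so that neither MYC nor MYCL was called. MLXIPL, the glucose-sensing factor ChREBP, rose from 3.15 to 13.1 FPKM. Of 12 HES, HEY and ID genes, 3 fell and none rose. HES7, the oscillator of the segmentation clock, fell from 21.3 to 4.44 FPKM, HES6 from 21 to 4.83 FPKM and HES3 from 2.94 to 0.2 FPKM. The targets of BMP signalling ID1 (187 and 207 FPKM) and ID3 (154 and 107 FPKM) were not called.

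Immediate early factors, which cells switch on soon after growth factor or stress signals, fell where they were called. Of 22 compared, 9 fell and none rose, with a median of -0.86. EGR1, a zinc finger factor downstream of ERK, was at 72.3 FPKM at day 0, 112 at day 2, 4.27 at day 3, 1.51 at day 4, 0.977 at day 6 and 6.81 at day 30. FOS was at 16.6 FPKM at day 0, 42.9 at day 2, 2.24 at day 3, 2.68 at day 4, 0.554 at day 6 and 40.5 at day 30, and day 2 was the highest of the 6 libraries for both. FOSB (from 5.42 to 0.213 FPKM), EGR2 (from 6.36 to 0.151 FPKM), EGR3 (from 4.48 to 0.718 FPKM) and FOSL1 (from 5.96 to 1.59 FPKM) fell to low levels. JUNB fell from 15.4 to 4.37 FPKM, NR4A1 from 15.6 to 4.59 FPKM and IER3, a stress response gene, from 174 to 56.9 FPKM. JUN (58.3 and 40.9 FPKM) was not called.

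Serum response factor binds CArG boxes, and the EGR1 promoter is known for them. The sequence below is shown for the gene of this list with the greatest fall. It is RefSeq sequence of build GRCh38.p14, chr5:138465354-138465425, plus strand, and lies 125 to 54 bases before the gene's start, with 2 CArG matches in capitals. The CArG box was searched by that name on both strands, in the 250 bases before and the 50 bases after each start.
EGR1: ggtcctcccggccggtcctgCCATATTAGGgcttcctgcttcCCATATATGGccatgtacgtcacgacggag
A CArG box stood in the promoters of 8 of 278 protein-coding genes that fell (2.88%), 2 of 374 that rose (0.535%) and 104 of all 9781 with a promoter in the table (1.06%). In the immediate early list 1 of the 17 compared genes with a promoter in the table held one, EGR1, and 1 of the 6 called. Besides EGR1, the genes that fell and hold one include ACTA1 (from 4.15 to 0.933 FPKM), skeletal muscle actin, and the growth factor PDGFA (from 4.37 to 1.53 FPKM). A match of letters is not a measured binding site, and its absence says only that the letters are not in this window.

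Genes of the WNT pathway moved in both directions. Of 19 ligands 8 were compared, of which 4 rose and 2 fell. WNT4, WNT6 and WNT11 were under 1 FPKM at day 2 and were compared only through day 3, so they could only rise. At a minimum of 5 FPKM, 1 of 5 rose and 2 fell. WNT8A was at 0 FPKM at day 0, 16.4 at day 2, 66.5 at day 3, 2.82 at day 4, 0.277 at day 6 and 0.0387 at day 30, its highest at day 3. WNT4 (from 0.508 to 3.43 FPKM), WNT6 (from 0.182 to 1.76 FPKM) and WNT11 (from 0.362 to 2.32 FPKM), the last a non-canonical ligand of heart development, rose from low levels. WNT3A, the canonical ligand of the streak and tail bud, fell from 8.13 to 2.28 FPKM, and WNT5B from 6.42 to 2.06 FPKM. WNT3 (16 and 15.1 FPKM) and WNT5A (23.6 and 30.5 FPKM) were not called. Receptors rose in 4 of 20 cases and fell in 1. FZD7, the most abundant Frizzled receptor here, rose from 134 to 301 FPKM. FZD5 (from 4.21 to 15 FPKM), LGR4 (from 8.22 to 26 FPKM), a receptor of R-spondins, and ROR1 (from 4.99 to 13.3 FPKM), a receptor of WNT5A, rose, while FZD10 fell from 5.54 to 0.552 FPKM.

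Secreted WNT antagonists moved both ways, with 5 of 13 falling and 2 rising. Their summed level dropped from 1384 to 389 FPKM. DKK4, which blocks the LRP5 and LRP6 co-receptors, was at 0 FPKM at day 0, 597 at day 2, 10.7 at day 3, 1.06 at day 4, 0 at day 6 and 0 at day 30. DKK1, of the same family, fell from 211 to 52.6 FPKM, and SFRP2, a decoy for WNT ligands, from 113 to 32.2 FPKM. CER1, which binds NODAL, BMP and WNT, fell from 408 to 156 FPKM. In the other direction SFRP1 rose from 27.9 to 97.8 FPKM and SFRP5, a marker of the sinus venosus and foregut, rose from 0.271 to 13.9 FPKM, a fold of 51.5 (25.9 to 120.2). Among 21 targets and feedback genes 10 fell and 1 rose, at a median of -0.89. AXIN2, the standard target gene, fell from 19.7 to 8.31 FPKM, its partner in feedback NKD1 from 15.2 to 7.07 FPKM, and the TCF7 transcription factor from 9.32 to 2.96 FPKM. AXIN2 and NKD1 were no longer called at equal FPKM totals, where 8 of the list fell and 2 rose. RSPO3, an R-spondin, fell from 40.9 to 6.82 FPKM. CCND1, a cyclin of G1, fell from 50.1 to 14.1 FPKM. The target that rose was the receptor TNFRSF19, from 1.12 to 7.62 FPKM. LEF1 and SP5, both WNT targets, were at 10.8 and 9.12 FPKM, and 340.4 and 183 FPKM, and were not called.

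The letters of the TCF and LEF core, CTTTGAT, were searched on both strands. They occurred in promoters of 7 of 278 falling genes (2.52%), 6 of 374 rising ones (1.6%) and 134 of all 9781 (1.37%). The falling genes with the core include MIXL1, IL17RD and FGF18, and the rising ones HAND1 and ZAP70. Of the 9 called streak factors with a promoter sequence, MIXL1 was the 1 that held it. A link between these letters and the falls was not tested. MIXL1, whose expression follows WNT and NODAL signals, holds the core 76 to 70 bases before its start, in capitals below (GRCh38.p14, chr1:226223568-226223614, plus strand).
MIXL1: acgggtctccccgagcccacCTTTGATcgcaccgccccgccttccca

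In the NODAL pathway 2 of 6 ligands and activin or inhibin subunits fell and 1 rose. Of 13 co-receptors, receptors and mediators 3 rose and none fell. NODAL was at 1.95 FPKM at day 0, 49.3 at day 2, 2.64 at day 3, 0.449 at day 4, 1.03 at day 6 and 0.478 at day 30. GDF3, which pairs with NODAL, fell from 14.9 to 1.74 FPKM. The 1 that rose was the inhibin alpha subunit INHA, from 1.35 to 5.21 FPKM. CFC1, the co-receptor Cryptic, was at 0.206 FPKM at day 0, 0.335 at day 2, 40.6 at day 3, 43.3 at day 4, 51.3 at day 6 and 0.436 at day 30, and its fold from day 2 to day 3 was 121 (63.7 to 266). Its near-identical copy CFC1B was at 0 and 1.59 FPKM, and reads of the pair may be split between them. TDGF1, the co-receptor Cripto, was at 114 and 114 FPKM. FURIN, a protease that matures NODAL and BMP precursors, rose from 13.9 to 36.1 FPKM. The antagonists LEFTY1 and LEFTY2, also similar in sequence, crossed: LEFTY1 fell from 2.96 to 0.258 FPKM and LEFTY2 rose from 0.441 to 6.56 FPKM. PMEPA1, an inhibitor of SMAD signalling induced by it, fell from 9.55 to 2.85 FPKM.

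Most BMP ligands compared rose, while most modulators, receptors, SMADs and response genes were not called. Of 17 ligands 6 were compared, of which 4 rose and none fell, with a median of 1.46. BMP5 and BMP10 were under 1 FPKM at day 2 and were compared only through day 3, so they could only rise. At a minimum of 5 FPKM, 2 of 4 rose. BMP4 was at 0.916 FPKM at day 0, 10.3 at day 2, 90.2 at day 3, 86 at day 4, 96.8 at day 6 and 4.99 at day 30, a fold of 8.79 (8.01 to 9.66) between the compared days. BMP2 rose from 16.4 to 64.9 FPKM, and BMP5 from 0.503 to 3.99 FPKM. BMP10, a ligand of trabecular heart muscle, had 0 reads at day 2 and 29 at day 3, at least 10.9-fold higher against a floor of 3 reads in the day 2 library. BMP7 was at 9.26 and 7.85 FPKM and was not called. Extracellular modulators rose in 3 of 10 cases, at a median of 0.14. BMPER rose from 1.67 to 22.8 FPKM, KCP from 5.2 to 18.7 FPKM and the antagonist NOG from 2.59 to 7.33 FPKM. The inhibitory SMAD6, a feedback gene, rose from 4.62 to 17 FPKM, and SMAD9, a BMP receptor substrate, from 0.727 to 3.84 FPKM. Apart from SMAD6, 1 of 8 receptors and SMADs compared rose, at a median of 0.13. Of 13 response genes 4 rose, at a median of 0.39, and HAND1 and GATA3 were among them. MSX1 (96.9 and 96.9 FPKM) and MSX2 (10.8 and 16.4 FPKM), homeobox targets of BMP, were not called, nor were ID1 and ID3 above.

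Of 11 FGF ligands 3 fell and none rose, and of 7 receptors 3 rose and none fell. FGF4 fell from 33.4 to 3.73 FPKM, FGF19 from 11.6 to 1.65 FPKM and FGF18 from 2.1 to 0.316 FPKM. FGF17, the most abundant ligand here, was at 0.272 FPKM at day 0, 153 at day 2, 84.9 at day 3, 60 at day 4, 0.704 at day 6 and 0.96 at day 30, and FGF8, its close relative in the streak, was at 7.57 and 3.83 FPKM. Neither passed the rule between days 2 and 3. FGFR3 rose from 12.9 to 45 FPKM, FGFR2 from 7.97 to 22.1 FPKM and FGFR4 from 11.9 to 25.1 FPKM, while FGFR1, the receptor of early mesoderm, was at 34.5 and 52.4 FPKM. The FGFR4 call ended with GC bin medians subtracted. Among ERK feedback genes 2 of 18 fell, ETV4 (from 39.7 to 17.8 FPKM) and IL17RD (from 49.8 to 22.6 FPKM). Neither passed the rule at equal FPKM totals, where 1 of 17 rose. DUSP6 (21 and 21.1 FPKM) and SPRY4 (67.1 and 83.4 FPKM), feedback inhibitors of ERK, were not called.

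**Figure D4:**
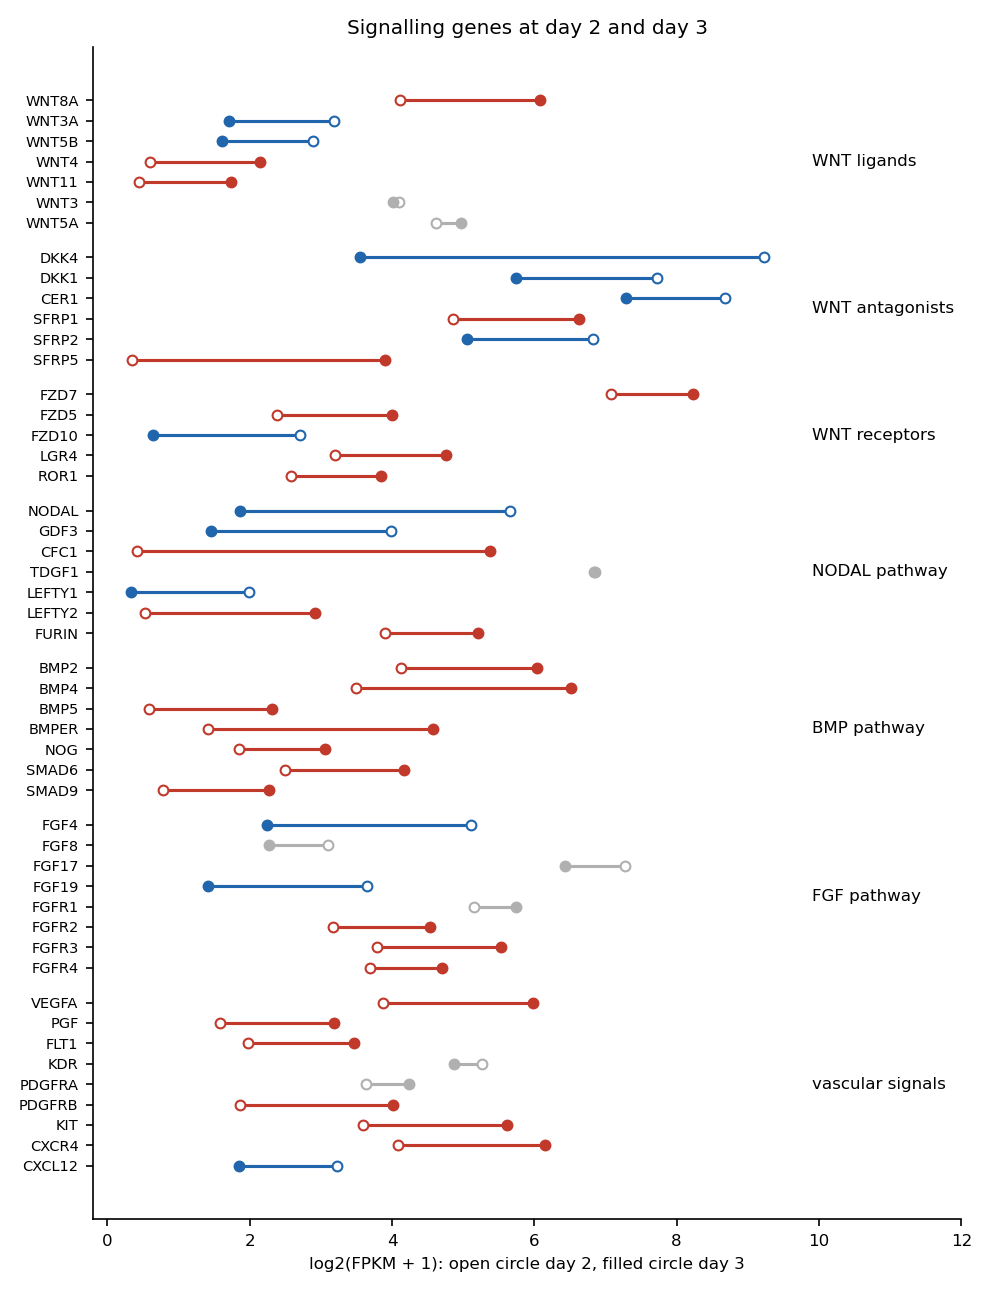
Levels of signalling genes in log2(FPKM + 1) (x axis) at day 2 (open circles) and day 3 (filled circles), 1 library each, grouped by pathway, red where higher at day 3, blue where lower and grey where not called. NODAL and DKK4 move far to the left, and CFC1, BMP4 and SFRP5 far to the right.

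Of 14 retinoic acid genes 3 rose and 2 fell. CYP26A1, the enzyme that degrades retinoic acid, rose from 43.7 to 107 FPKM, the binding protein CRABP2 from 171 to 406 FPKM and the retinol importer STRA6 from 10.9 to 27 FPKM. ALDH1A2, the synthesizing enzyme, fell from 1.82 to 0.243 FPKM. In the NOTCH list the ligand JAG1 rose from 6.57 to 33.3 FPKM and the receptor NOTCH2 from 6.4 to 15.1 FPKM, with 15 of 18 not called. The Hedgehog ligand IHH (from 0.123 to 1.69 FPKM) and the co-receptor BOC (from 0.487 to 3.52 FPKM) rose from low levels, and PTCH1, a target of the pathway, was at 4.75 and 10 FPKM.

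Vascular signals rose more often than they fell, with 6 of 15 VEGF, PDGF and angiopoietin genes rising and 1 falling. The apelin and chemokine receptor list had 1 rise and 1 fall among 8 genes, at a median of -0.57. VEGFA, the main growth factor of blood vessels, was at 13.2 FPKM at day 0, 13.6 at day 2, 62.2 at day 3, 60.6 at day 4, 44.3 at day 6 and 128 at day 30. Its relative PGF rose from 1.99 to 8.08 FPKM, their receptor FLT1 from 2.94 to 10.1 FPKM and the co-receptor NRP2 from 2.57 to 16.6 FPKM. KDR, the VEGF receptor of endothelial and heart progenitors, was at 37.5 and 28.4 FPKM and was not called. PDGFRB (from 2.64 to 15.2 FPKM) and KIT (from 11.1 to 48.1 FPKM), receptor tyrosine kinases, rose. PDGFA, the ligand of PDGFRA, fell from 4.37 to 1.53 FPKM, a call that ended at equal FPKM totals, and PDGFRA, a marker of cardiac mesoderm, was at 11.4 and 17.9 FPKM. CXCR4, a chemokine receptor, rose from 16 to 69.7 FPKM while its ligand CXCL12 fell from 8.34 to 2.6 FPKM. APLNR, the apelin receptor of nascent mesoderm, was at 358 FPKM at day 2 and 656 at day 3 and did not pass the rule, but did at equal FPKM totals. Neuregulins NRG1 (from 0.471 to 3.95 FPKM), NRG2 (from 0.234 to 9.33 FPKM) and NRG3 (from 1.25 to 3.6 FPKM), ligands of ERBB receptors, all rose and TGFA, a ligand of EGFR, fell from 6.24 to 1.5 FPKM.

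Guidance genes were called higher more often than lower, with 6 of 37 semaphorin, plexin, netrin and slit genes rising and 1 falling, and 11 of 36 and none at equal FPKM totals. SEMA3G was at 0.481 FPKM at day 0, 1.43 at day 2, 26.1 at day 3, 61.8 at day 4, 11.7 at day 6 and 0.614 at day 30. SEMA6D (from 1.87 to 16.4 FPKM), SEMA5B (from 1.63 to 5.11 FPKM), SEMA3F (from 37.2 to 79.7 FPKM) and NTN4 (from 3.55 to 15.7 FPKM) rose, and SEMA3E fell from 9.58 to 4.09 FPKM. Among ephrins, the membrane-bound ligands EFNB1 (from 11.6 to 39.3 FPKM) and EFNB3 (from 9.97 to 23.4 FPKM) and the receptor EPHB2 (from 1.7 to 5.38 FPKM) rose, and the receptor EPHA1 fell from 22.6 to 9.99 FPKM, which ended at equal FPKM totals, where 5 of the 17 ephrin and Eph genes rose. Of 18 YAP targets, ANKRD1 (from 0.533 to 3.38 FPKM) and AJUBA (from 8.46 to 21.1 FPKM) rose and CTGF (from 20.8 to 8.08 FPKM) fell, with 4 rises and 1 fall at equal FPKM totals.

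**Figure D5:**
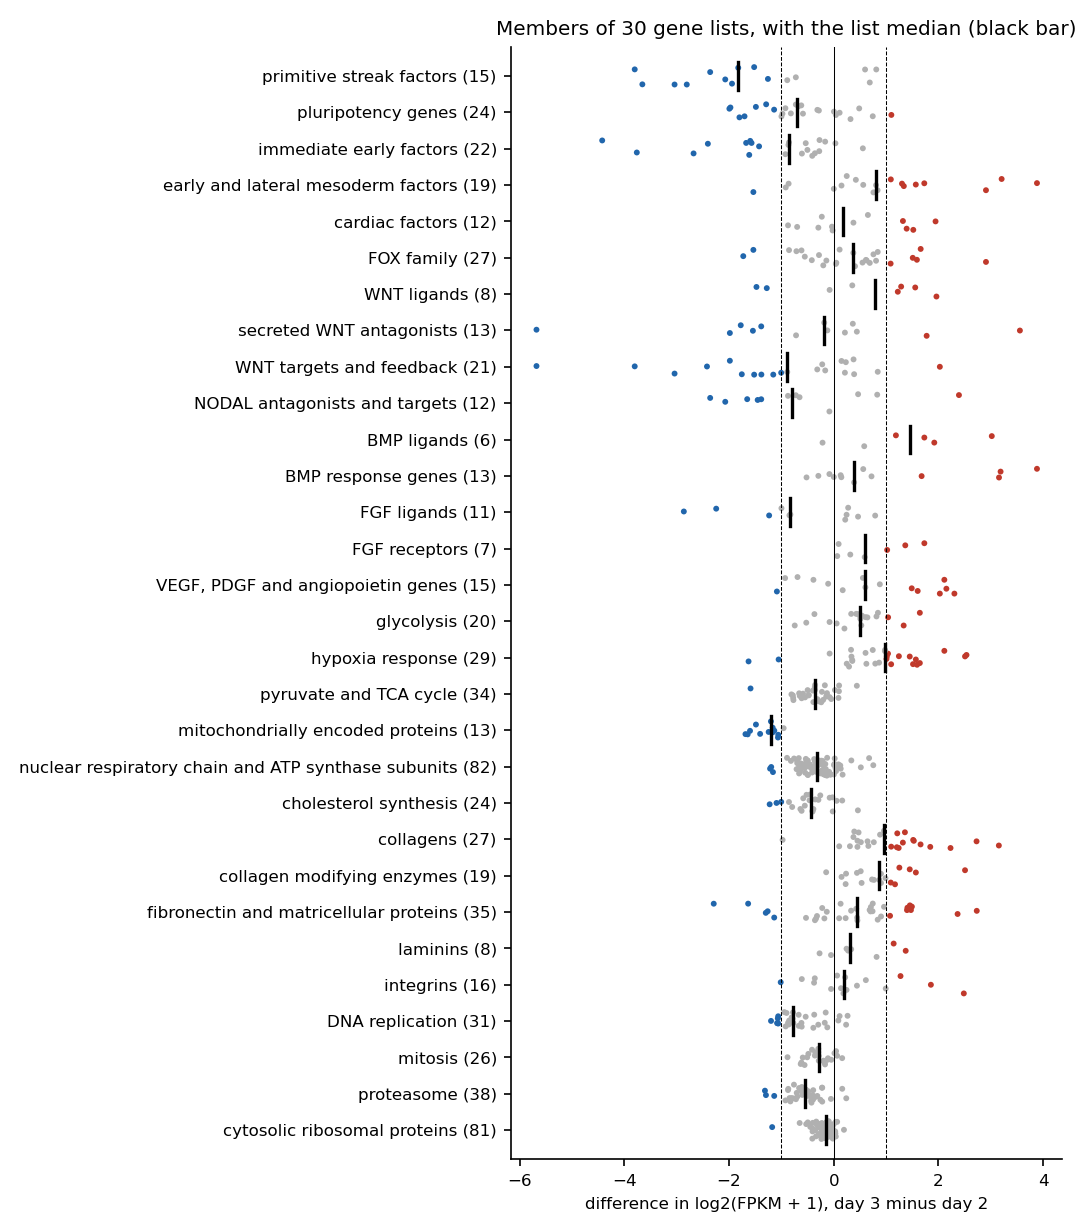
Difference in log2(FPKM + 1), day 3 minus day 2 (x axis), of each compared member of 30 gene lists (rows, number compared in brackets), 1 point per gene, red where higher, blue where lower, black bars at list medians and dashed lines at a difference of 1. Streak, mitochondrially encoded and replication genes lie mostly left of 0, and collagens and hypoxia genes mostly right.

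Hypoxia response genes, the targets of HIF transcription factors in low oxygen, rose in 13 of 29 cases and fell in 2, at a median of 0.98. DDIT4, an inhibitor of mTORC1, was at 129 FPKM at day 0, 100.5 at day 2, 305 at day 3, 131 at day 4, 29.9 at day 6 and 294 at day 30. LOX, which cross-links collagen, was at 5.51 FPKM at day 0, 4.41 at day 2, 29.8 at day 3, 2.64 at day 4, 1.48 at day 6 and 209 at day 30. P4HA1 (from 63.5 to 190.2 FPKM) and P4HA2 (from 4.92 to 15.2 FPKM), subunits of collagen prolyl hydroxylase, rose. HILPDA, a lipid droplet protein, rose from 15.7 to 46.7 FPKM, ANGPTL4 from 5.28 to 13.9 FPKM and the kinase PFKFB4, which drives glycolysis, from 21.9 to 70.6 FPKM. BHLHE41 (from 6.5 to 2.61 FPKM), a circadian repressor, and CA12 (from 2.85 to 0.248 FPKM), a carbonic anhydrase, fell. The counts were 17 and 1 at equal FPKM totals, and BHLHE41 was no longer called there or with length or GC bin medians subtracted. BNIP3, a mitophagy receptor, was at 126 and 213 FPKM and was not called. Only 4 of the 13 rising genes had their highest level of the 6 libraries at day 3. The list's median level was 24.9 FPKM at day 0, 13.9 at day 2, 27.5 at day 3 and 12.7 at day 4, so day 3 lay near day 0. HIF3A, a HIF subunit, rose from 4.67 to 13.8 FPKM, ARNT2, a HIF partner, fell from 2.86 to 0.802 FPKM, though not at equal FPKM totals, and HIF1A was at 39.3 and 34.3 FPKM.

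HIF binds the core ACGTG. It stood on either strand in the promoters of 15 of the 25 hypoxia genes found in the promoter table (60%) and of 26.8% of all 9781. Of the 12 called hypoxia genes with a promoter, 7 held it (58.3%), as did 25.1% of all rising genes. The list was drawn from known HIF targets, so this share describes the list and not the change. The stretches below, from RefSeq on GRCh38.p14, are shown for 4 rising members with ACGTG, or CACGT where it lies on the other strand, in capitals. BHLHE41, whose call depends on the scaling, holds the core too. The stretches are chr5:122078277-122078464 on the minus strand for LOX, with 4 cores, chr10:73096928-73096972 on the minus strand for P4HA1, chr10:72273779-72273823 on the plus strand for DDIT4 and chr19:8363905-8363945 on the plus strand for ANGPTL4.
LOX: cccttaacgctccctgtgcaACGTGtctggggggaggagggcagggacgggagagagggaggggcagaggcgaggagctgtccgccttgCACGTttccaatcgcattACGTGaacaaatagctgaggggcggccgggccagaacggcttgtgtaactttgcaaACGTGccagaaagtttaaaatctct
P4HA1: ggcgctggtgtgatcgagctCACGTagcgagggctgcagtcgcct
DDIT4: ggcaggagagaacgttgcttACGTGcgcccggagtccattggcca
ANGPTL4: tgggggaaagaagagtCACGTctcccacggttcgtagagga

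Glycolytic enzymes rose in 3 of 20 cases, or 5 at equal FPKM totals, and 8 of the 20 had their highest level at day 3. The list's median level was 70.2 FPKM at day 0, 44.7 at day 2, 68.6 at day 3 and 36.2 at day 4, so day 3 lay near day 0. HK2, a hexokinase, rose from 43.5 to 111 FPKM, a fold of 2.56 (2.47 to 2.65), and ALDOA, aldolase A, from 7.07 to 15.6 FPKM. PGK1 (257 and 402 FPKM) and LDHA (251 and 338 FPKM), HIF targets of lower glycolysis, were not called. The glucose transporters SLC2A1 (288 and 402 FPKM) and SLC2A3 (355 and 663 FPKM) were not called, and SLC2A14, a close copy of SLC2A3 that may share its reads, rose from 3.7 to 8.92 FPKM.

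Mitochondrially encoded transcripts fell in a block. Of 13 protein genes of the mitochondrial genome, 12 fell, with a median difference of -1.20. The list's median level was 3121 FPKM at day 2, 969 at day 3 and 1719.96 at day 4. MT-ND1, a subunit of complex I, went from 3121 to 969 FPKM and MT-ATP6, of ATP synthase, from 4493 to 1483 FPKM. MT-CO1, a subunit of complex IV, was the 1 not called, at 10329 and 5320.2 FPKM. With each library set to the same FPKM total, 6 of the 13 fell and the median was -0.97, and with the medians of length bins subtracted 7 fell and it was -1.01. The summed level of the 13 genes was 51328 FPKM at day 2 and 21633 at day 3. This sum is part of the FPKM total, so equal totals take up some of the fall. Scaling to read totals left 12 falls. Setting the median log2 ratio of genes of at least 10 FPKM in both libraries to 0 left 10. Of the nuclear subunits of the same complexes 3 of 82 fell, with a median of -0.33. In the TCA cycle list 1 of 34 fell, the cytosolic isocitrate dehydrogenase IDH1 (from 84.8 to 27.5 FPKM). Mitochondrial ribosomal proteins fell in 2 of 77 cases, at a median of -0.31. The shortest length bin had a median of -0.19. With length bin medians subtracted, the median was -0.22 for the nuclear subunits, with 3 falls, -0.28 for the TCA cycle list and -0.19 for the mitochondrial ribosomal proteins, of which none fell. At equal FPKM totals 1 nuclear subunit and no mitochondrial ribosomal protein passed the rule.

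Lipid and nucleotide synthesis genes were lower where they were called. FABP5, a fatty acid carrier, fell from 170.5 to 31.2 FPKM and CPT1A, the gate of fatty acid oxidation, from 4.13 to 1.35 FPKM, a call that ended at equal FPKM totals. In cholesterol synthesis 3 of 24 fell, among them HMGCS1 (from 41.9 to 17.4 FPKM) and IDI1 (from 14.4 to 6.66 FPKM). None of the 3 passed the rule at equal FPKM totals, where the list's median was -0.24. RRM2, the ribonucleotide reductase subunit, fell from 14.9 to 4.78 FPKM, CTPS1, which makes CTP, from 8.14 to 3.47 FPKM, and the folate enzyme SHMT1 from 11.7 to 4.49 FPKM. Of 25 genes of the pentose phosphate and nucleotide list 3 fell, and 1 of 26 at equal FPKM totals, where CTPS1 was no longer called. SLC40A1, the iron exporter ferroportin, was at 0.0318 FPKM at day 0, 0.344 at day 2, 12.9 at day 3, 12 at day 4, 27.6 at day 6 and 15.2 at day 30. Of 189 solute carriers 9 rose and 3 fell (18 of 188 rose at equal FPKM totals), among them the amino acid transporter SLC7A2 (from 3.37 to 12.8 FPKM) and the zinc transporters SLC39A4 (from 1.41 to 6.25 FPKM) and SLC39A8 (from 38.9 to 12.5 FPKM), which moved in opposite directions.

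Collagen genes rose widely. Of 27 compared, 13 rose and none fell, with a median of 0.96, and 26 of the 27 had a positive difference. COL9A2, a chain of collagen IX, was at 0.783 FPKM at day 0, 6.72 at day 2, 67.7 at day 3, 86.1 at day 4, 75.5 at day 6 and 2.74 at day 30. COL5A1, of fibrillar collagen V, rose from 33.8 to 124 FPKM, a fold of 3.66 (3.56 to 3.77). The basement membrane chains COL4A1 (from 12.2 to 40.6 FPKM), COL4A5 (from 13.9 to 36.2 FPKM), COL4A6 (from 12.5 to 62.2 FPKM) and COL18A1 (from 55.7 to 129.8 FPKM) rose, and COL4A2 was at 10.1 and 20.6 FPKM. COL1A1 (from 5.75 to 18.5 FPKM), COL2A1 (from 5.34 to 14 FPKM) and COL11A1 (from 4.58 to 13.3 FPKM), fibrillar chains, rose too. Enzymes that modify collagen rose in 6 of 19 cases, or 10 at equal FPKM totals, with LOXL2 (from 9 to 22.8 FPKM), LOXL1 (from 2.75 to 6.98 FPKM) and PLOD1 (from 20.5 to 47.4 FPKM) beside LOX, P4HA1 and P4HA2. The last 3 are also in the hypoxia list. The longest of the length bins had a median of 0.08.

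Fibronectin and matricellular proteins moved in both directions, with 8 of 35 rising and 5 falling. FN1, fibronectin, was at 35.8 FPKM at day 0, 49.1 at day 2, 331 at day 3, 421 at day 4, 396 at day 6 and 704 at day 30. FBLN2, a fibulin, rose from 22.4 to 119.7 FPKM, SPARC, a collagen-binding glycoprotein, from 55.9 to 149.8 FPKM, and FBN2, an embryonic fibrillin, from 42.6 to 119 FPKM. The thrombospondins THBS1 (from 3.83 to 0.556 FPKM) and THBS2 (from 9.28 to 1.1 FPKM) fell, as did osteopontin, SPP1 (from 6.85 to 2.19 FPKM). ITGA5, the fibronectin receptor subunit, rose from 33 to 122 FPKM, and ITGA8 from 0.421 to 6.95 FPKM, whereas ITGA4, another subunit that binds fibronectin, fell from 1.45 to 0.212 FPKM, a call that ended at equal FPKM totals. LAMA1 (from 12.3 to 33.4 FPKM) and LAMB2 (from 10.3 to 24 FPKM), laminin chains of the basement membrane, rose.

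The hyaluronan matrix of the early heart is held by versican and link protein, and both genes rose, VCAN from 29.1 to 65.7 FPKM and HAPLN1 from 3.86 to 42.1 FPKM, while the synthase HAS3 fell from 11 to 2.21 FPKM. HAS2, the synthase required for the heart's cushions, was at 109 and 208 FPKM. Syndecans crossed: SDC1 fell from 10.8 to 1.86 FPKM, and SDC3 (from 9.08 to 21.7 FPKM) and SDC4 (from 27 to 69 FPKM) rose. Of 40 metalloproteinases and inhibitors 6 rose, among them ADAM12 (from 0.164 to 6.33 FPKM), ADAMTS9 (from 2.01 to 8.53 FPKM) and ADAMTS12 (from 1.04 to 7.44 FPKM), and ADAMTS16 fell from 7.39 to 1.37 FPKM. The secreted serine protease HTRA1 was at 5.83 FPKM at day 0, 4.85 at day 2, 70.4 at day 3, 261 at day 4, 79.1 at day 6 and 55.7 at day 30. Cadherin genes showed CDH11, a mesenchymal cadherin, rising from 8.02 to 31.2 FPKM, while CDH1 (53.9 and 30.4 FPKM) of epithelia and CDH2 (96.6 and 128 FPKM) of mesenchyme were not called. Keratin KRT19 was at 39.2 FPKM at day 0, 109 at day 2, 778 at day 3, 609 at day 4, 532 at day 6 and 299 at day 30, with KRT8 from 90.3 to 185 FPKM and KRT18 at 73.4 and 115 FPKM, the last not called.

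DNA replication genes fell where they were called. Of 31 replication genes 6 fell and none rose, with a median of -0.77. PCNA, the sliding clamp, went from 103 to 44.1 FPKM, MCM4, of the helicase, from 52.1 to 24.4 FPKM, and CDC6, of origin licensing, from 13.7 to 5.93 FPKM. Of 26 mitosis genes none was called, and the median was -0.29. CCNE1, the cyclin that starts S phase, fell from 13.8 to 5.3 FPKM. Chaperones fell in 3 of 14 cases at a median of -0.86, with HSPH1 from 19.5 to 5.71 FPKM, and in 1 at equal FPKM totals. Proteasome genes fell in 3 of 38 at a median of -0.56, and cytosolic ribosomal proteins in 1 of 81 at -0.16. At equal FPKM totals none of the 31 replication genes passed the rule and their median was -0.55, and that of the ribosomal proteins turned to 0.08. With GC bins subtracted 2 replication genes fell, and with length bins 3. The difference between the replication and mitosis lists was not tested.

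Markers of other cell types were also present. Definitive endoderm markers rose in 7 of 17 compared and fell in 2. HNF4A (from 0.289 to 2.19 FPKM), a factor of gut and liver, rose beside SOX17, FOXA1, FOXA3, CXCR4 and KIT. CER1 and GSC, given above, were the 2 that fell. EPCAM, an epithelial adhesion protein, was at 86.7 and 132 FPKM. The summed level of the endoderm list was 832 FPKM at day 2 and 839 at day 3. Its part in the SOX17, CXCR4 and KIT results was not tested.

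Most endothelial and blood markers were below 1 FPKM. Of 20 listed, 7 were compared, KDR above among them, and none was called. Of the defining genes, CDH5 was at 0.0204 and 0.206 FPKM and PECAM1 at 0.048 and 0.198 FPKM. VWF, a clotting factor known from endothelium, nevertheless was at 0.132 FPKM at day 0, 1.64 at day 2, 20.3 at day 3, 14.2 at day 4, 3.5 at day 6 and 0.491 at day 30. Of 20 amnion and trophoblast markers 10 were compared, with 5 rising and 1 falling. The 5 were HAND1, GATA3, BMP4, KRT8 and ISL1, of which HAND1, BMP4 and ISL1 (from 0.539 to 3.41 FPKM) are also known from lateral mesoderm. CDX2 was the 1 that fell, from 4.54 to 0.93 FPKM, and KRT7, TFAP2A and VTCN1 were below 1 FPKM in both libraries. Of 18 cardiomyocyte markers 12 were below 1 FPKM in both, TNNT2 at 0.0428 and 0.182 and MYH6 at 0.0478 and 0.14 FPKM. MYL4 (from 0.152 to 2.98 FPKM), TNNC1 (from 2.29 to 9.19 FPKM) and NPPB (from 0.895 to 2.91 FPKM) rose at low levels. Node markers fell in 5 of 10 and rose in 1, and presomitic markers rose in 3 and fell in 3 of 14. STMN2, listed as a neuronal marker, rose from 4.71 to 27.8 FPKM, with TUBB3 and DCX below 1 FPKM in both.

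Several of the 30 greatest rises lie outside the groups above. DLK1, an imprinted NOTCH-like ligand, was at 0.0777 FPKM at day 0, 1.08 at day 2, 21.9 at day 3, 38 at day 4, 16.9 at day 6 and 1900.4 at day 30. ZAP70, a kinase known from T cell receptor signalling, was at 0 FPKM at day 0, 7.59 at day 2, 59.1 at day 3, 96.3 at day 4, 7.32 at day 6 and 1.52 at day 30. ALPK2, an alpha-kinase, rose from 0.454 to 11.8 FPKM, MYLK3, the cardiac myosin light chain kinase, from 0.222 to 6.75 FPKM, and TMOD1, which caps actin filaments of muscle, from 0.67 to 10.2 FPKM. TMEM88, a membrane inhibitor of WNT signalling in cardiac progenitors, rose from 6.18 to 42.9 FPKM. CRB2, a polarity protein needed for cells to leave the streak, rose from 0.587 to 10.6 FPKM, and AMOT, a regulator of YAP, from 1.37 to 14.9 FPKM. Among the 30 greatest falls were the prohormone convertase PCSK1 (from 10.5 to 0.723 FPKM), the hormone somatostatin, SST (from 22.9 to 3.05 FPKM), the calcitonin receptor CALCR (from 20 to 3.35 FPKM), the phospholipase PLA2G2A (from 12 to 1.49 FPKM) and UTF1 (from 7.3 to 1.08 FPKM), a chromatin factor of pluripotent cells.

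Genes that do not code for protein were called more often. Of 4086 compared, 636 rose (15.6%) and 429 fell (10.5%). Part of this group is short genes annotated as small RNAs and counted from few reads. The libraries are of polyadenylated RNA, and whether these reads come from the small RNAs themselves was not tested. RNU6-132P went from 0 reads to 15, SNORA37 from 0 to 12, and SNORD116-7 from 16 reads to 0. With more reads behind them, the long noncoding RNA AL132709.1 rose from 3.49 to 36.4 FPKM (72 and 669 reads), and the antisense gene AL162274.2 from 5.8 to 48.7 FPKM (31 and 232 reads). HPAT5, a transcript of pluripotent cells, fell from 20.4 to 1.42 FPKM (323 and 20 reads). Whether counting used strand is not given in the sources used here, so antisense genes and their partners may share reads.

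Some called genes were neighbours. Of 12035 adjacent pairs of compared protein-coding genes, 75 were called in the same direction, 44 of them higher, 21 lower in the nuclear genome and 10 lower in the mitochondrial genome, and 24 pairs were called in opposite directions. Taken singly, 4.28% of protein-coding genes were called higher and 3.11% lower. The number of pairs that these shares alone would give was not worked out, so the pairs below are examples only. The higher pairs included MESP1 with MESP2, HOXB2 with HOXB3, IRX3 with IRX5, VCAN with HAPLN1, FURIN with the kinase gene FES (from 2.3 to 5.68 FPKM), and COL4A5 with COL4A6, which lie 347 bases apart on chromosome X. The lower pairs included FGF4 with FGF19 and NANOG with GDF3. Reads over the ends of close genes may be assigned to either.

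Placed among the 6 days, the called genes were often at a turning point. Of the 1152 that rose, 493 (42.8%) had their highest level at day 3, 240 at day 4, 165 at day 6 and 228 at day 30. Of the 804 that fell, 449 (55.8%) had their highest level at day 2 and 217 (27%) at day 0. Among genes not called, 9.62% peaked at day 3 and 15% at day 2. A gene called higher cannot peak at day 2, and a call for a high day 3 level favours a peak at day 3. These shares therefore follow in part from the rule. Of the 1152 rises, 636 were genes that do not code for protein, and the counting interval excluded 1 for 914.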

How the data were processed

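Of 6 RNA libraries of the H9 line, those of day 2 and day 3 are compared. The authors deposited 1 table of FPKM values for 58735 genes, with positions, lengths and classes. The submitters' processing notes name CASAVA, HISAT2 and featureCounts 1.5.0-p3. The sources used here do not state settings, genome build or strand. Multiplied by gene length, the values of a library were whole numbers of reads times a constant (100% of values, tolerance 0.001 read), so reads were recovered: 15526924 at day 2 and 13500887 at day 3.

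Genes with at least 1 FPKM in either library were compared on log2(FPKM + 1), a scale that understates changes of low genes, and called at a difference of at least 1. A gene below 1 FPKM on 1 of the days was compared only through the other, so the filter fixed its direction. With 1 library per day there was no test. Folds have exact conditional binomial 95% intervals from recovered reads, for counting error only. PCR copies were not told apart. Where 1 library had 0 reads, it was set to 3 reads and the fold given as a minimum. Near-identical and overlapping genes may share reads.

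The comparison and its 92 gene lists, some sharing members, were chosen with earlier results of these data known. Genes were named from the top 30 protein-coding rises and the top 30 falls, 5 noncoding genes in each direction, and the called and abundant uncalled list members, a few of which are not reported here. GPC3, MAPKAP1, ANO9, GPR19 and FES, and genes so marked at the end, were chosen after their values were seen. Promoters are RefSeq sequence (GRCh38.p14), 250 bases before to 50 after the start, found for 9781 of 12063 protein-coding genes compared. The procedure was tested on simulated reads. Python 3.11.15, NumPy 2.4.6, pandas 2.3.3, SciPy 1.17.1 and matplotlib 3.10.9 were used. Alternatives were a pseudocount of 0.1, no minimum, a minimum of 5 FPKM, 3 other scalings, protein-coding genes alone, a rule of 2, the counting interval, list means, and, chosen after seeing the data, subtraction of length or GC bin medians.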

Additional observations from a re-analysis of the deposited data

How the results depend on the processing

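No paired analysis was possible because each day had 1 library. Against 1152 higher and 804 lower genes, a pseudocount of 0.1 gave 2061 and 1378, a minimum of 5 FPKM 572 and 367, and protein-coding genes alone 516 and 375. A rule of 2 gave 144 and 69, and a counting interval that excludes 1 gave 914 and 575. Among protein-coding genes, subtracting length bin medians gave 604 and 286, and GC bin medians 550 and 309, both chosen after seeing the data. Read totals gave 1214 and 758, a median ratio of 0 gave 1325 and 685, and equal FPKM totals 1640 and 557. Dropping the minimum gave the same counts, 1152 and 804, since a gene below 1 FPKM in both cannot pass the rule.

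Of 919 list medians under an alternative, 866 stayed within 0.3 of the reported one and 47 changed sign. In 41 of these the reported median lay within 0.3 of 0, 7 of them at equal FPKM totals. The other 6 were in 4 lists. The median of WNT ligands turned to -0.002 with no minimum and -0.079 at a minimum of 5 FPKM, the median of NODAL and activin ligands to -2.533 at that minimum and -0.579 as a mean, the median of HTRA and serpin family to -0.027 with no minimum, and the median of endothelial and blood progenitor markers to -0.388 at a minimum of 5 FPKM. The cause was not tested. For the 271 protein-coding genes given with values in the report, 6 alternatives were compared. No called difference could change sign there, since the scalings shifted log2 ratios by 0.236 or less and bin medians lay within 0.19 of 0. A pseudocount of 0.1 keeps the sign of every difference. At equal FPKM totals 21 lost the call, among them MYC, MYCL, DNMT3B, AXIN2, PCNA and MCM4, and 7 gained it, among them APLNR, LHX1, SLC2A3 and COL4A2.

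Depth limits the low genes. Noncoding genes called from few reads, such as SNORA37 with 0 and 12 reads, rest on counts whose intervals are wide, and variation between cultures was not measured.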

Other observations

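Some called genes outside the groups above lay close together in the genome. The genes in this paragraph other than DLK1, MESP1, MESP2 and AL132709.1 were chosen after their values were seen. On chromosome 14, the imprinted DLK1 gene and 2 long noncoding RNAs downstream of it rose. DIO3, the deiodinase at the other end of the same imprinted domain, was also higher at day 3 but stayed just under the rule. MEG9 was at 0.193 FPKM at day 0, 0.947 at day 2, 11.5 at day 3, 14.3 at day 4 and 0.414 at day 6, and AL132709.1, annotated beside it on the other strand, at 0.751, 3.49, 36.4, 26.1 and 1.04 FPKM on the same days. DLK1 was at 1.08 FPKM at day 2 and 21.9 at day 3, and reached 1900.4 at day 30, when MEG9 was at 0.857 and AL132709.1 at 2.33. DIO3 was at 19.6 FPKM at day 2, 39.5 at day 3 and 1106 at day 30. Whether counting used strand is unknown, so reads of MEG9 and AL132709.1 near each other may be mixed.

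On chromosome 15, WDR93, MESP1, MESP2 and ANPEP are 4 consecutive compared genes, and all rose. WDR93, a WD-repeat gene, went from 1.04 to 6.5 FPKM and was at 4.79 at day 4 and 0.327 at day 6. ANPEP, the membrane aminopeptidase CD13, went from 10.4 to 29.3 FPKM and was at 11.4 at day 4 and 2.68 at day 6. GATA3-AS1, a noncoding gene beside GATA3, rose from 0.236 FPKM (9 reads) to 6.05 (206 reads) and was at 20.2 at day 4 and 16.6 at day 6, while GATA3 had its highest level at day 6.

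Protocadherins, adhesion proteins of the cadherin superfamily, rose in 4 of 32 cases and fell in 1. PCDH19 was at 0.183 FPKM at day 0, 2.53 at day 2, 9.02 at day 3, 2.08 at day 4 and 0.213 at day 6, a peak on the day of MESP2 and FOXC2. PCDH17 (0.537 and 4.44 FPKM), PCDH7 (2.62 and 10.4) and PCDH8 (0.458 and 2.22) rose too, with later peaks, and PCDH11X fell from 3.32 to 0.689 FPKM. Among imprinted genes, PEG10 (20.1 and 55.9 FPKM) and PLAGL1 (3.53 and 11.1) rose, and PHLDA2 fell from 15 to 3.8 FPKM.

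Of promoter letters searched on both strands, the GATA site AGATAAG stood in 12 of 374 rising genes (3.21%), 1.44% of falling ones and 1.28% of all 9781, and the AP-1 site TGANTCA in 27 rising genes (7.22%), 3.96% of falling ones and 4.1% of all. Rising genes with the GATA site include BMP10, ISL1, TGIF1, FMOD and INHA. These are counts of letters in 7 motifs searched, with no test.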
